A study of Mus musculus with 10 samples.

Results

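The genes described here are 9 interferon response genes, namely Stat2, Irf1, Irf7 and Irf9, which encode transcription factors of the pathway, and Ifit1, Ifit3, Isg15, Bst2 and Ifi27, which encode effectors that cells make after exposure to interferon. They were chosen by name, as 9 listed genes looked up in the deposited gene table by Ensembl identifier. That table holds 11702 genes and contained 6 of the 9 (Stat2, Irf1, Irf7, Irf9, Ifit3 and Ifi27). The other 3, Ifit1, Isg15 and Bst2, were read from the deposited transcript table as the sum of the transcripts of each gene, and are named as transcript sums throughout.

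Retinal polyA RNA of female mice was compared in 3 groups. The rd10 mouse, here of the B6.CXB1-Pde6brd10/J strain, carries a germline mutation in Pde6b, which encodes a subunit of the rod phosphodiesterase, and loses its rods after birth. The groups were WT retinas injected with DMSO (4 libraries, W1 to W4), rd10 retinas injected with DMSO (3 libraries, D1 to D3) and rd10 retinas injected with halofantrine, an antimalarial drug (HAL, 3 libraries, H1 to H3). The protocol, which is the same for all samples, gives 1 μL of 20 μM halofantrine or of DMSO into the vitreous at P10 and again at P24, so the controls were injected as well. The study collected rd10 retinas at P36 and does not give an age for the RNA samples alone. The labels do not name the strain of the WT mice. By their labels, batch 2 consists of D3, H2 and H3, and batch 1 of the other 7 libraries, all of WT among them. The sample titles further name a set, which is set1 for W1 to W3, set1_5 for W4, set2 for D1, D2 and H1, last_rd10 for H2 and H3 and final_rd10 for D3. No set holds both genotypes, so the set and the genotype cannot be told apart. They do not say which libraries are separate mice, so p-values measure only the spread between these libraries.

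Interferons are secreted proteins that signal through receptors coupled to Janus kinases. Type I interferon brings STAT2 and IRF9 together in a complex that binds the interferon-stimulated response element, whereas interferon gamma acts mainly through the gamma-activated sequence and induces IRF1. The induced genes restrict viruses and are also expressed by activated microglia and glia in diseases of the nervous system. IRF7 is itself induced and feeds back on the production of type I interferon.

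The promoters of the members that the results below turn on are shown to place these elements beside the measured genes. The sequences were taken from RefSeq (GRCm38.p6), which held a promoter for 8 of the 9 members, all but Ifi27. Each window ran from 250 bases before to 50 bases after the annotated start, and the 250 bases before the start are printed, 5′ to 3′ on the strand of the gene. Capitals mark matches to GAAANNGAAA, the core of the interferon-stimulated response element (ISRE), on either strand, or to TTCNNNGAA, the gamma-activated sequence (GAS), which reads alike on both strands.
Ifit1, chr19:34640639-34640888, plus strand: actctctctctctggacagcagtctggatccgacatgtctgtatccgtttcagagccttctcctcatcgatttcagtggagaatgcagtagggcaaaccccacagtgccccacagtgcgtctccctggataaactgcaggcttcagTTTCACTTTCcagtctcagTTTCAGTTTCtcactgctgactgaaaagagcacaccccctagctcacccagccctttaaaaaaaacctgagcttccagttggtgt
Ifit3, chr19:34583279-34583528, plus strand: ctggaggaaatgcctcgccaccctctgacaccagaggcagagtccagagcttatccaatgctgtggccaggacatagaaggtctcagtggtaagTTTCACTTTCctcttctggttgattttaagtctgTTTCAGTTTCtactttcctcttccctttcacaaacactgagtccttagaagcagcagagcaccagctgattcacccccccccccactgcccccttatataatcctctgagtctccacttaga
Isg15, chr4:156200819-156201068, minus strand: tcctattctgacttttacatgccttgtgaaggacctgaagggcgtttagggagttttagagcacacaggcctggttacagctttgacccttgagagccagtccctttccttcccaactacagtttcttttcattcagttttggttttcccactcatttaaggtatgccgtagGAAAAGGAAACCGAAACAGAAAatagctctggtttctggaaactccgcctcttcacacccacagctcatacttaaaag
Bst2, chr8:71537473-71537722, minus strand: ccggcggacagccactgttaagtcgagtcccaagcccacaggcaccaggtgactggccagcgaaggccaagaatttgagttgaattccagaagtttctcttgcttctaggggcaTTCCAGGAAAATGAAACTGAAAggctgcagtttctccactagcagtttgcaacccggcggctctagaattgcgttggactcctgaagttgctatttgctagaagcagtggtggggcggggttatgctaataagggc
Irf1, chr11:53769764-53770013, plus strand: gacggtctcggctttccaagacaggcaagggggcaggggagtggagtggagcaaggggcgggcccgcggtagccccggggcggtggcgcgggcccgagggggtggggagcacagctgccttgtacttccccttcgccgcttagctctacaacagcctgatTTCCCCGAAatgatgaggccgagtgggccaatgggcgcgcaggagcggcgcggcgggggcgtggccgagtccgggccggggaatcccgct
Stat2, chr10:128270248-128270497, plus strand: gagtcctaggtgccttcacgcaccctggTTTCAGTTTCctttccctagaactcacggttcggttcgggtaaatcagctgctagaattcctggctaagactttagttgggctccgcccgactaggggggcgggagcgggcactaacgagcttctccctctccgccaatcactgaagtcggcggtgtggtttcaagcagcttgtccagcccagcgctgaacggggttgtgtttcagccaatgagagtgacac
Irf7, chr7:141266425-141266674, minus strand: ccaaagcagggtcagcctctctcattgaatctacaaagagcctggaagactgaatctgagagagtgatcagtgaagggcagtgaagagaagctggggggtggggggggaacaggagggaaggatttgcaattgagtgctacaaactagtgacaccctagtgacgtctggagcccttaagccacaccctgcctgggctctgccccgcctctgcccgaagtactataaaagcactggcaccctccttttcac

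Among all 32851 promoters of that table, 3.44% held the ISRE letters at least once, 0.225% held them 2 or more times, and 8.3% held the GAS letters. Ifit1 and Ifit3, which encode RNA-binding antiviral proteins of one family, each held 2 separate ISRE matches, whose first bases lay at -104 and -85 from the start in Ifit1 and at -156 and -122 in Ifit3. Isg15, which encodes a ubiquitin-like protein, held 3 matches that overlap one another, at -78, -72 and -66. Bst2, which encodes tetherin, a membrane protein that holds budding virus at the cell surface, held 2 overlapping ISRE matches at -130 and -124, the first of which overlapped a GAS match at -136. Stat2 held 1 ISRE match at -222. Irf1 held 1 GAS match at -90 and no ISRE match, and its second annotated promoter held neither. The windows of Irf7 and of both annotated starts of Irf9 held neither set of letters, which says only that these letters are not in those windows.

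Estimated counts on the gene table ranged from 15512212 in D3 to 38160436 in D2. The library labelled WT W4 went against its label. Pde6b stood at 2699, 2850 and 2855 CPM (counts scaled to a common library size with TMM factors) in W1, W2 and W3, at 93.1 CPM in W4 and at 125 to 387 CPM in the 6 rd10 libraries. The comparisons of the members with WT are therefore given both as labelled and without W4.

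Levels were first compared between genes per length, as TPM, in which counts are divided by transcript length and scaled to the same total. The order of the means in rd10 DMSO retinas was Stat2 (65.8 ± 6.96 TPM, SD, n = 3), Ifi27 (58.9 ± 10.6), Ifit3 (53.9 ± 8.87), Irf9 (39.2 ± 3.77), Irf7 (25.4 ± 13.1), Bst2 (22.5 ± 10.9), Isg15 (19.5 ± 7.82), Irf1 (18.4 ± 2.35) and Ifit1 (12.6 ± 3.64). Stat2, Ifi27 and Ifit3 lay within the SD of their neighbours, as did Irf7, Bst2, Isg15 and Irf1, whereas the steps from Ifit3 to Irf9, from Irf9 to Irf7 and from Irf1 to Ifit1 exceeded the SD of either gene. In W1 to W3 Stat2 was also the highest, at 43.3 to 51.0 TPM, followed by Irf9 (17.4 to 21.6 TPM) and Ifi27 (14.6 to 20.0 TPM), whose ranges overlapped. Isg15, at 1.43 to 2.89 TPM, and Ifit1, at 1.25 to 1.51 TPM, were the lowest there, and their ranges overlapped. Ifit3, at 10.4 to 11.1 TPM, stood below Irf9 in W1 to W3 and above it in every rd10 library. Levels from here on are CPM, which compare libraries and not genes.

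**Figure D1:**
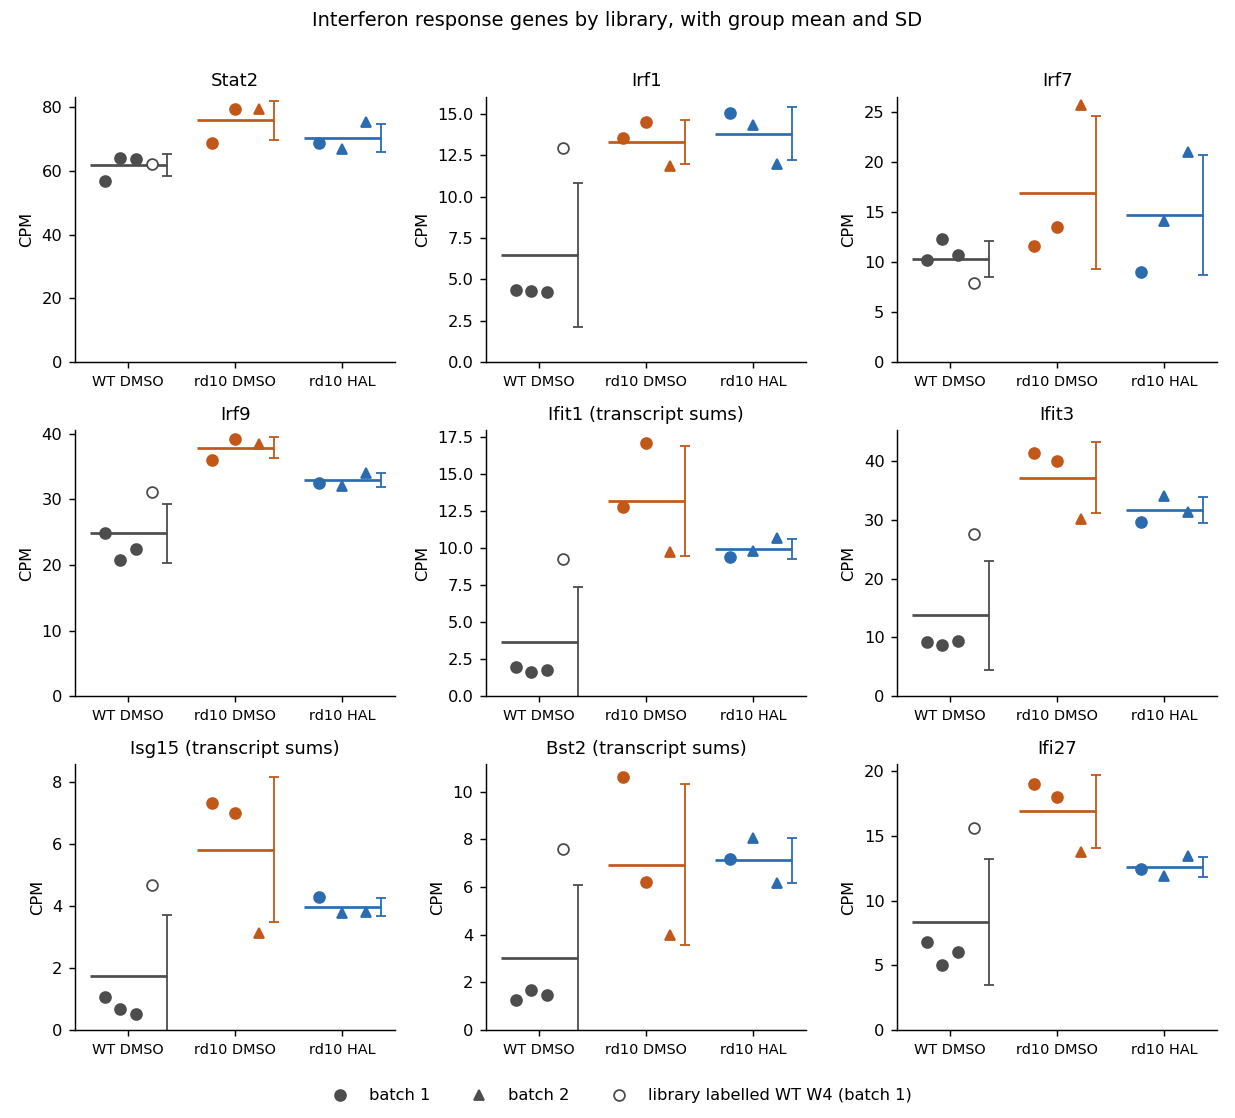
Level of each of the 9 members in each library, in CPM (vertical axis, from 0), by group. Circles are batch 1, triangles batch 2 and the open circle is the library labelled WT W4, lines are group means and bars 1 SD (n = 4, 3 and 3). For Irf1, Ifit1, Ifit3, Isg15, Bst2 and Ifi27 the open circle lies far above the other 3 WT libraries, and Irf7 is highest in the batch 2 library of rd10 DMSO, at 25.7 CPM.

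The first comparison asked which members differed between the degenerating and the WT retina. Without W4, the effectors Ifit1, Ifit3, Isg15, Bst2 and Ifi27 rose by log2 fold changes of 1.53 to 2.93 in rd10 DMSO retinas, and the factors Irf1, Irf9 and Stat2 rose by 0.31 to 1.64, whereas Irf7 did not pass the test. This was 5 of the 6 members in the gene table, beside 32.3% of 11696 genes tested that were called higher, and 8 of all 9 by transcript sums, beside 26.9% of 17324 genes (edgeR quasi-likelihood test with Benjamini-Hochberg adjustment). With the 4 WT libraries as labelled, no member passed and neither did any other gene (0.0% of 11698 genes). At an unadjusted p under 0.05 edgeR held 3108 genes (26.6%), among them all 6 members, each at an adjusted p of 0.187, and DESeq2 called 589 of the 11698 genes with Stat2, Irf9 and Ifit3 among them. As labelled, all 3 rd10 DMSO libraries lay above all 4 WT libraries for 3 of the 6 members (Stat2, Irf9 and Ifit3), against 4.6% of all genes in the table. In bulk tissue, more cells that express a gene and more of its RNA per cell cannot be told apart.

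Ifit3 was measured at 9.17, 8.78 and 9.42 CPM in W1, W2 and W3, at 27.6 CPM in W4 and at 41.4, 39.97 and 30.2 CPM in D1, D2 and D3. The groups did not overlap, and W4 lay closer to D3 than to W1 to W3. The log2 fold change was 1.43 ± 0.433 (SE) as labelled and 2.04 ± 0.131 without W4 (adjusted p = 2.64e-05, edgeR). Ifit3 has a near-identical neighbour, Ifit3b, and the division of reads between both copies by pseudoalignment is uncertain. Ifit1 stood at 1.95, 1.61, 1.75 and 9.28 CPM in W1 to W4 and at 12.8, 17.1 and 9.72 CPM in D1 to D3 (transcript sums). The groups did not overlap, although W4 came close to D3. Its log2 fold change was 1.83 ± 0.631 as labelled (adjusted p = 0.205, edgeR) and 2.87 ± 0.238 without W4 (adjusted p = 7.25e-05, edgeR).

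Isg15 was measured at 1.06, 0.674 and 0.525 CPM in W1 to W3, which rest on 22.3, 13.4 and 9 counts, at 4.67 CPM in W4 and at 7.33, 6.997 and 3.14 CPM in D1 to D3 (transcript sums). W4 was above D3, so the groups overlapped as labelled. The log2 fold change was 1.71 ± 0.736 as labelled (adjusted p = 0.206, edgeR) and 2.93 ± 0.405 without W4 (adjusted p = 0.000683, edgeR). Bst2 was at 1.28, 1.66, 1.46 and 7.61 CPM in W1 to W4 and at 10.6, 6.22 and 3.998 CPM in D1 to D3 (transcript sums). W4 exceeded D2 and D3, and the log2 fold change went from 1.18 ± 0.672 as labelled (adjusted p = 0.267, edgeR) to 2.22 ± 0.366 without W4 (adjusted p = 0.00163, edgeR). Ifi27, which encodes a small interferon-inducible membrane protein, was at 6.78, 4.99, 6.01 and 15.6 CPM in W1 to W4 and at 19.0, 18.0 and 13.7 CPM in D1 to D3. W4 again exceeded D3, and the log2 fold change was 1.01 ± 0.398 as labelled and 1.53 ± 0.171 without W4 (adjusted p = 0.000223, edgeR).

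Of the transcription factors, Irf1 reached 4.36, 4.29 and 4.26 CPM in W1 to W3, at 13.0 CPM in W4 and at 13.5, 14.5 and 11.9 CPM in D1 to D3. W1 to W3 were nearly equal, and W4 lay within the rd10 range. The log2 fold change was 1.03 ± 0.436 as labelled and 1.64 ± 0.131 without W4 (adjusted p = 5.64e-05, edgeR). Irf9, the DNA-binding partner of STAT2, was at 24.9, 20.7, 22.4 and 31.1 CPM in W1 to W4 and at 36.1, 39.2 and 38.4 CPM in D1 to D3. The groups did not overlap, and the log2 fold change was 0.61 ± 0.147 as labelled and 0.75 ± 0.088 without W4 (adjusted p = 0.000268, edgeR). Stat2 changed least of the members that passed, from 56.8, 64.2, 63.9 and 62.4 CPM in W1 to W4 to 68.9, 79.6 and 79.5 CPM in D1 to D3. W4 lay within the range of W1 to W3 here, and the log2 fold change was 0.30 ± 0.0901 as labelled and 0.31 ± 0.0843 without W4 (adjusted p = 0.0134, edgeR).

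Irf7 differed from the rest. It was at 10.2, 12.3, 10.7 and 7.95 CPM in W1 to W4 and at 11.6, 13.6 and 25.7 CPM in D1 to D3. W4 was the lowest of all 10 libraries, D1 lay below W2, and D3 was far above D2. The log2 fold change was 0.72 ± 0.303 as labelled and 0.61 ± 0.291 without W4 (adjusted p = 0.103, edgeR). As labelled it was 0.30 without D3 and 0.29 with batch as a term, and 0.20 with that term and without W4. All WT libraries are batch 1, so with that term the value rests on D1 and D2.

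**Figure D2:**
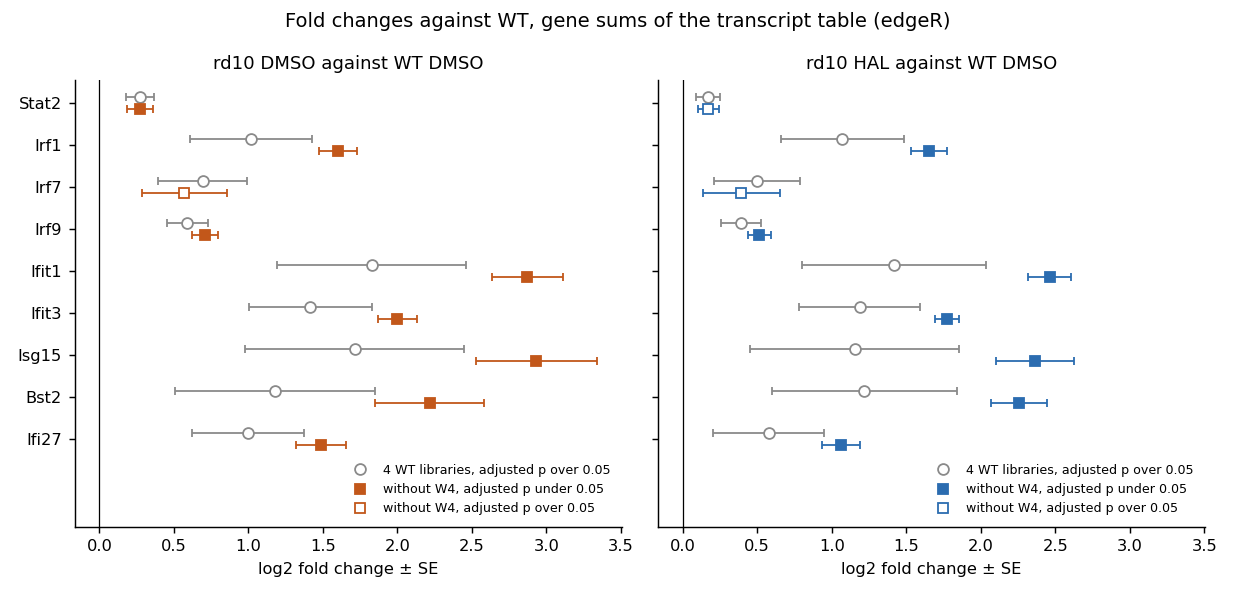
Log2 fold change ± SE of each member against WT by edgeR on transcript sums, for rd10 DMSO (left) and rd10 HAL (right). Grey circles use the 4 WT libraries as labelled and coloured squares leave W4 out, with filled symbols for an adjusted p under 0.05. Without W4, Ifit1, Isg15 and Bst2 lie above 2 in both panels and Stat2 lies below 0.3.

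In rd10 HAL against WT, which shares the WT libraries with the comparison above, the members are given side by side and not as a second observation. As labelled, no member passed, and 1 gene of 11699 was called (0.00855%, edgeR), Gm45837, which was named after its values were seen. At an unadjusted p under 0.05 edgeR held 4050 genes (34.6% of 11699), 4 of the 6 members among them. DESeq2 called 2221 of the 11699 genes, with Ifit3 as the one member of the 6. Without W4, the same 5 members of the gene table rose, beside 35.7% of 11699 genes called higher, with log2 fold changes of 1.79 ± 0.0812 for Ifit3, 1.68 ± 0.129 for Irf1, 1.09 ± 0.136 for Ifi27, 0.54 ± 0.0768 for Irf9 and 0.19 ± 0.0683 for Stat2 (adjusted p = 0.0293 for Stat2, edgeR). Irf7 had a log2 fold change of 0.42 ± 0.263 (adjusted p = 0.184, edgeR), which turned to -0.30 with batch as a term, and as labelled it went from 0.52 to 0.17 without H3 and to -0.19 with batch as a term. All WT libraries are batch 1, as is H1 alone of the HAL libraries, so both values with that term rest on H1. By transcript sums 7 of the 9 rose, beside 30.9% of 17473 genes called higher, with 2.46 ± 0.145 for Ifit1, 2.37 ± 0.262 for Isg15 and 2.26 ± 0.186 for Bst2, and there Stat2 missed the threshold (adjusted p = 0.0567, edgeR). As labelled, Stat2, Irf9 and Ifit3 of the 6 members had all 3 HAL libraries above all 4 WT libraries, against 9.26% of all genes.

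The other genes of the pathway were grouped by role. None of 21 interferon genes was abundant enough to be tested. In all 10 libraries 14 of them were at 0, where a count of 0 allows up to 3 counts, which come to 0.0753 to 0.184 CPM by library (counting error only). The 3 named here were chosen after their values were seen. Ifnz, of the interferon zeta group, was found in W4 (0.0583 CPM), D2 (0.0709), H1 (0.0646), H2 (0.0705) and H3 (0.117), where the last value rests on 3.92 counts, the most of any of these genes in any library. Ifnb1, the gene of interferon beta, was found in W4 alone, at 0.0371 CPM, and Ifng, the gene of interferon gamma, in W1 and H1, at 0.0474 and 0.111 CPM. The summed level was 0 to 0.0474 CPM in W1 to W3, 0.0954 CPM in W4, 0 to 0.0709 CPM in rd10 DMSO and 0.147 to 0.176 CPM in the 3 HAL libraries. These are a few counts each at most and were not tested.

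Of 9 receptor and kinase genes 7 were tested, and without W4 Ifnar2 and Ifngr2 rose and Ifngr1 fell in rd10 DMSO, which is 3 of 7 beside 62.2% of all genes called in either direction in that fit (32.3% higher), against which the counts of the lists below are to be read too. Ifnar2, a chain of the type I receptor, went from 5.19 to 6.13 CPM in W1 to W3 to 10.7 to 11.7 CPM in D1 to D3, with 11.3 CPM in W4 (transcript sums), a log2 fold change of 1.01 ± 0.128 (adjusted p = 0.000373, edgeR), while its partner Ifnar1 was at -0.03 ± 0.0706. Ifngr1, the ligand-binding chain of the gamma receptor, had a log2 fold change of -0.48 ± 0.0943 and Ifngr2 one of 0.46 ± 0.101. Jak2 was at 0.04 ± 0.0635. Of 8 STAT and IRF genes tested, 4 members included, 6 rose and Irf3 fell. Stat3, which cytokines of the interleukin 6 family activate, had a log2 fold change of 1.49 ± 0.111 and Irf2 of 0.27 ± 0.076. Irf3, which nucleic acid sensors activate, was at -1.11 ± 0.136 (adjusted p = 0.000335, edgeR), and it was named after its values were seen.

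Among 9 genes of nucleic acid sensing tested (of 19 listed), 6 rose and Mavs fell. Rigi and Ifih1, which encode sensors of viral RNA, had log2 fold changes of 1.63 ± 0.135 and 1.46 ± 0.174, and Tlr3, an endosomal receptor of double-stranded RNA, of 1.33 ± 0.196. Eif2ak2 and Adar, which respond to and edit double-stranded RNA, were at 0.94 ± 0.0971 and 0.65 ± 0.0678. Mavs, the adaptor of both RNA sensors, was at -0.66 ± 0.0724, and it was named after its values were seen. The list of negative regulators had 6 genes tested, but it also holds Ifnar2, the receptor chain counted above. Of the other 5, Socs3, an inhibitor of STAT3 signalling, rose by 2.69 ± 0.223, Irf2 rose as given above, and Pias1 and Ptpn2 fell, with log2 fold changes of -0.63 ± 0.0764 and -0.34 ± 0.0817.

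Of 28 type I interferon-stimulated genes tested (68 listed, members included), 25 rose and none fell, beside 32.3% of all genes called higher, with a median log2 fold change of 1.52 against -0.01 over all genes tested. Xaf1, which encodes an antagonist of an apoptosis inhibitor, was at 1.52 ± 0.149, and Ube2l6, the conjugating enzyme for ISG15, at 2.08 ± 0.171. Of 14 interferon gamma-responsive genes tested (34 listed, Irf1 among them), 12 rose and none fell, with a median of 1.67. The guanylate-binding protein genes Gbp3, Gbp7 and Gbp9 were at 2.08 ± 0.236, 1.46 ± 0.132 and 2.33 ± 0.166, and the immunity-related GTPase genes Igtp and Irgm1 at 1.69 ± 0.165 and 1.98 ± 0.14. With W4 kept in, no gene of the pathway lists passed by edgeR. DESeq2 was read out for the members only, of which it called Stat2, Irf9 and Ifit3 as given above. The medians by edgeR with W4 kept in were 1.00 and 1.15 over the same 28 and 14 genes, 0.60 over the STAT and IRF genes, 0.44 over the sensing genes, 0.00 over the receptors and kinases, 0.09 over the negative regulators and -0.02 over all genes. Ifnar2 was then at 0.68 ± 0.294, Stat3 at 1.14 ± 0.296, Irf3 at -0.90 ± 0.315, Ifih1 at 1.07 ± 0.337, Mavs at -0.49 ± 0.227, Socs3 at 1.54 ± 0.696 and Gbp9 at 1.48 ± 0.556. At an unadjusted p under 0.05 edgeR then held 19 of the 28 and 7 of the 14, against 26.6% of all genes.

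**Figure D3:**
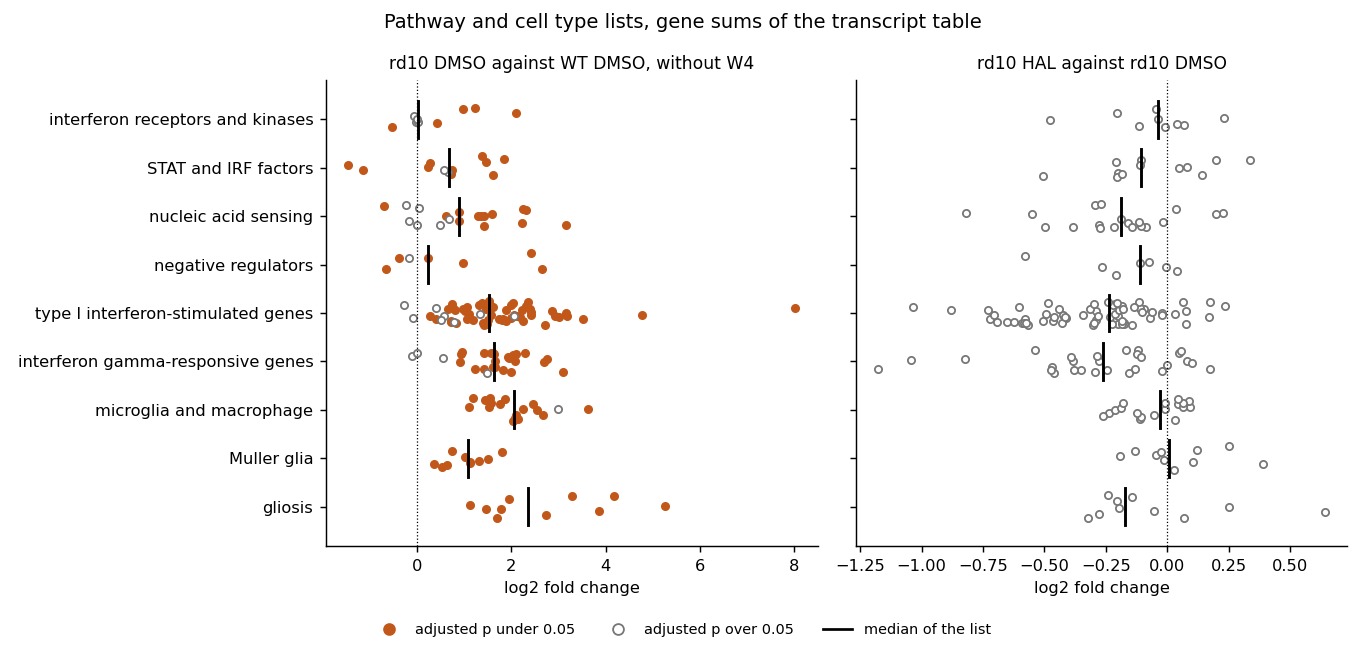
Log2 fold change of each tested gene of 6 pathway lists and 3 cell type lists by edgeR on transcript sums, for rd10 DMSO against WT without W4 (left) and for rd10 HAL against rd10 DMSO (right). Filled points have an adjusted p under 0.05, and vertical bars are list medians. In the left panel the type I and gamma lists have medians of 1.52 and 1.62, in the right panel -0.24 and -0.26 with no filled point. The point farthest right, Ifi207, was at 0 in W1 to W3, so its fitted value is no measure of its fold.

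Markers of several other cell types moved with the same split of the libraries, while others did not. The summed level of 18 microglia and macrophage markers was 69.5 to 78.3 CPM in W1 to W3, 284 CPM in W4, 279 to 314 CPM in rd10 DMSO and 276 to 292 CPM in rd10 HAL, and without W4 all 9 of its genes in the gene table rose. Mrc1 was at 0 in W1, and no marker of the 18 was at 0 in all libraries. Without W4, all 10 Muller glia markers and all 10 gliosis markers rose as well, the gliosis sum from 268 to 304 CPM in W1 to W3 to 1535 to 1629 CPM in rd10 DMSO, with 1339 CPM in W4. The list of 15 T, NK and B lymphocyte markers summed to 1.71 to 2.40 CPM in W1 to W3 and to 3.39 to 4.36 CPM in the other 7 libraries, with Cd3e at no more than 0.123 CPM and Cd2 at 0 throughout. All 12 rod markers fell without W4, their sum from 77980 to 82070 CPM in W1 to W3 to 4141 to 11470 CPM in rd10 DMSO, with 3064 CPM in W4, below every rd10 library. Endothelial markers summed to 299 to 331 CPM in W1 to W3, 713 CPM in W4 and 535.7 to 711.5 CPM in rd10 DMSO. Pericyte markers summed to 102 to 119, 152 and 161 to 169 CPM in the same order. Cone markers did not follow the split, at 2128 to 2286 CPM in W1 to W3 and 2116 to 2508 CPM in rd10 DMSO. Pigment epithelium markers overlapped too, at 54.7 to 324 CPM and 194 to 670 CPM. As labelled no gene of these lists passed by edgeR. The part of these cells in the levels of the members was not tested.

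The 5 genes whose log2 CPM was most like the mean z-score of the 6 tested members over the 10 libraries were Lrfn2, Kremen1, Fgf2, E2f6 and Ano1, with Pearson r of 0.982, 0.981, 0.979, 0.977 and 0.976. This is a description over libraries that share the split described above, since the mean z-score of the members was -1.18 to -1.10 in W1 to W3, -0.08 in W4 and 0.15 to 0.94 in the rd10 libraries. Within the 6 rd10 libraries r was 0.461, 0.814, 0.369, 0.551 and 0.573 for these genes in the same order. Fgf2, which encodes a survival factor, went from 33.6 to 34.1 CPM in W1 to W3 and 69.2 CPM in W4 to 86.1, 112 and 158 CPM in D1 to D3.

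The second comparison asked whether halofantrine changed the members in the rd10 retina. No gene passed in rd10 HAL against rd10 DMSO (0.0% of 11692 genes, edgeR), with 557 genes (4.76%) at an unadjusted p under 0.05, Ifi27 and Irf9 among them, and 3 genes called by DESeq2, none of them a member. Irf9 and Ifi27 were 2 of the 6 members for which all 3 HAL libraries lay below all 3 DMSO libraries, against 6.2% of all genes. Irf9 was at 36.1, 39.2 and 38.4 CPM in D1 to D3 and at 32.5, 32.1 and 34.1 CPM in H1 to H3, a log2 fold change of -0.21 with a 95% interval, from the t distribution at the degrees of freedom of the edgeR test, of -0.367 to -0.0447 (adjusted p = 0.883, edgeR). Ifi27 was at 19.0, 18.0 and 13.7 CPM in D1 to D3 and at 12.4, 11.9 and 13.5 CPM in H1 to H3, a log2 fold change of -0.43 with an interval of -0.755 to -0.105 (adjusted p = 0.883, edgeR). The gap for Ifi27 between D3 and H3 was small, and that for Irf9 between D1 and H3 was wider.

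The other members overlapped between treatments. Ifit3 was at 29.6, 34.0 and 31.3 CPM in H1 to H3 and Stat2 at 69.0, 66.9 and 75.5 CPM, with log2 fold changes of -0.24 (interval -0.535 to 0.0593) and -0.11 (-0.303 to 0.082). Irf1 was at 15.03, 14.3 and 12.0 CPM in H1 to H3, with a log2 fold change of 0.04 (-0.259 to 0.346), and its sign turned when D3 or H1 was left out. Irf7 was at 9.03, 14.1 and 21.1 CPM, and its log2 fold change of -0.19 (-1.07 to 0.699) also turned without D3 or H1. With batch as a term it was -0.52 (adjusted p = 0.269, edgeR), and the differences of mean log2 CPM were -0.48 within batch 1 and -0.58 within batch 2. By transcript sums, Ifit1 was at 9.37, 9.77 and 10.7 CPM, Isg15 at 4.29, 3.78 and 3.80 CPM and Bst2 at 7.18, 8.05 and 6.17 CPM in H1 to H3. Their log2 fold changes were -0.42 (-0.868 to 0.0328), -0.57 (-1.26 to 0.106) and 0.03 (-0.696 to 0.757), with adjusted p of 0.91, 0.91 and 0.989 by edgeR. In the gene table the 28 type I interferon-stimulated genes had a median log2 fold change of -0.21 and the 14 gamma-responsive genes of -0.13, against -0.00 over all genes, with 10 and 3 of them at an unadjusted p under 0.05 and none called. Cell type lists differed as well with no gene called: pigment epithelium markers had a median of -0.76 and summed to 670, 194 and 530 CPM in D1 to D3 and 267, 157 and 187 CPM in H1 to H3, gliosis markers had a median of -0.17 and erythrocyte markers of 1.45. Their part in the values of the members was not tested.

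For 4 effectors the highest rd10 libraries were the same, while the order of the others differed. D1 and D2, the DMSO libraries of batch 1, were the highest of the 6 for Ifit1, Ifit3, Isg15 and Ifi27, which is 4 of the 9 members beside 7.63% of the 18066 genes with at least 3 counts in each rd10 library. Within batch 1, H1 lay below both of them, with differences in mean log2 CPM of -0.66 for Ifit1, -0.46 for Ifit3, -0.74 for Isg15 and -0.58 for Ifi27. Within batch 2, H2 and H3 lay above D3 for Ifit1 (0.07), Ifit3 (0.11) and Isg15 (0.27), and for Ifi27 the difference was -0.11. For Irf9 the difference was -0.21 in each batch. The test of the difference between the batches, a treatment by batch term in the 6 rd10 libraries, gave 0.56 ± 0.129 for Ifit3 (adjusted p = 0.101 over 11701 genes, edgeR) and, by transcript sums, 1.02 ± 0.281 for Isg15 and 0.76 ± 0.285 for Ifit1 (adjusted p = 0.191 and 0.298, edgeR). For Bst2 it was 1.05 ± 0.507 (adjusted p = 0.392, edgeR). No member passed, beside 0.419% of genes called in the gene table and 0.0306% by transcript sums. By the titles D3 is of another set than H2 and H3, so within batch 2 treatment and set cannot be told apart.

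**Figure D4:**
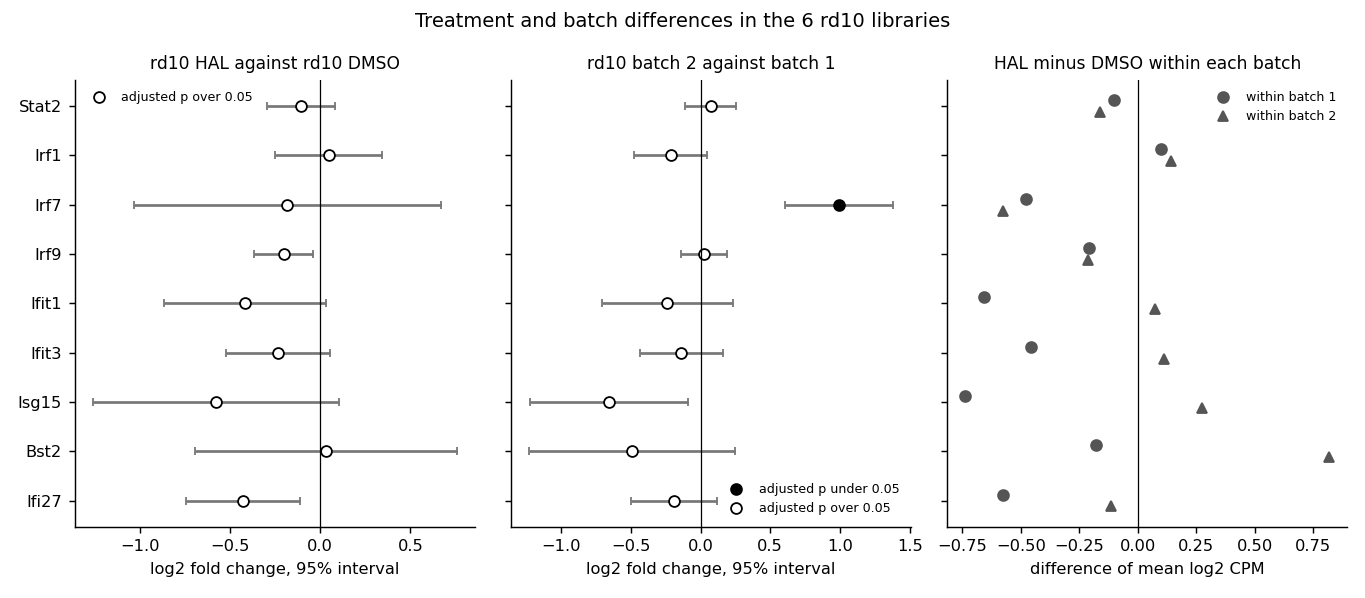
Log2 fold changes with 95% intervals by edgeR on transcript sums for rd10 HAL against rd10 DMSO (left) and for batch 2 against batch 1 with a treatment term (middle), and differences of mean log2 CPM between HAL and DMSO within each batch (right). Each row is a member. The filled point at 0.99 is Irf7, the only member called in either comparison, and in the right panel Ifit1, Ifit3, Isg15 and Bst2 are below 0 in batch 1 and above 0 in batch 2.

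The third comparison set batch 2 of the rd10 libraries against batch 1, with treatment as a term. Irf7 rose, as 1 of the 6 members, beside 4.63% of 11698 genes called in either direction. It was at 11.6, 13.6 and 9.03 CPM in D1, D2 and H1 and at 25.7, 14.1 and 21.1 CPM in D3, H2 and H3, so the batches did not overlap (batch 2 was above batch 1 in this way for 14.6% of all genes). The log2 fold change was 0.99 ± 0.168 (adjusted p = 0.0247, edgeR). The call rests on each of 3 libraries, since the adjusted p was 0.0698 without D1, 0.0559 without D2 and 0.177 without D3, and it was 0.145 with no treatment term. Isg15 went the other way, at 7.33, 6.997 and 4.29 CPM in batch 1 and 3.14, 3.78 and 3.80 CPM in batch 2 (11.6% of those 18066 genes had batch 2 below batch 1 in this way), but its log2 fold change of -0.66 ± 0.243 did not pass (adjusted p = 0.193, edgeR). The other 5 members in the gene table had log2 fold changes of -0.22 to 0.07. All 12 rod markers rose in batch 2 as well, with a sum of 3910 to 4286 CPM in D1, D2 and H1 and 8125 to 11470 CPM in D3, H2 and H3, and their part in the result of Irf7 was not tested.

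The transcripts of Irf7 did not move alike. Of its 13 transcripts in the table with a reference entry, 6 are annotated as retaining an intron, and these made up 55.0%, 54.4% and 69.6% of the counts of the gene in D1 to D3 and 20.7%, 58.0% and 55.1% in H1 to H3. Summed, the retained-intron transcripts were at 6.39, 7.39 and 1.87 CPM in D1, D2 and H1 and at 17.9, 8.17 and 11.6 CPM in D3, H2 and H3, so all of batch 2 lay above batch 1. The coding transcripts were at 5.24, 6.19 and 7.16 CPM in batch 1 and at 7.81, 5.92 and 9.45 CPM in batch 2, which overlapped. In W1 to W3 the coding transcripts of Irf7 were at 5.29, 5.56 and 2.93 CPM and the retained-intron ones at 4.91, 6.39 and 7.81 CPM. These shares are pseudoalignment estimates over transcripts that share most of their sequence, and no test was run on them.

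The shares of 2 coding transcripts of Irf9 also varied between libraries, again with no test. Irf9-202 held 13.6%, 41.5% and 13.2% of the counts of the gene in W1 to W3, 54.6% in W4 and 42.0% to 62.4% in the 6 rd10 libraries. Irf9-203 held 61.6%, 42.7% and 70.4% in W1 to W3, 28.4% in W4 and 22.5% to 31.5% in the rd10 libraries. The shares of W1 to W3 did not overlap with those of the rd10 libraries, although W2 came within 1 percentage point of H3 for Irf9-202. Retained-intron transcripts held 14.8% to 17.4% of Irf9 in the rd10 libraries and 15.8% to 24.8% in W1 to W3. For Irf1 the shares of the 2 main coding transcripts varied widely within W1 to W3, with Irf1-202 at 22.3%, 56.3% and 92.9%, where the whole gene rested on 73 to 92 counts. Ifit1, Ifit3 and Isg15 each had 1 transcript in the table with a reference entry, and Stat2 kept 81.0% to 89.4% of its counts on Stat2-201 in all 10 libraries.

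**Figure D5:**
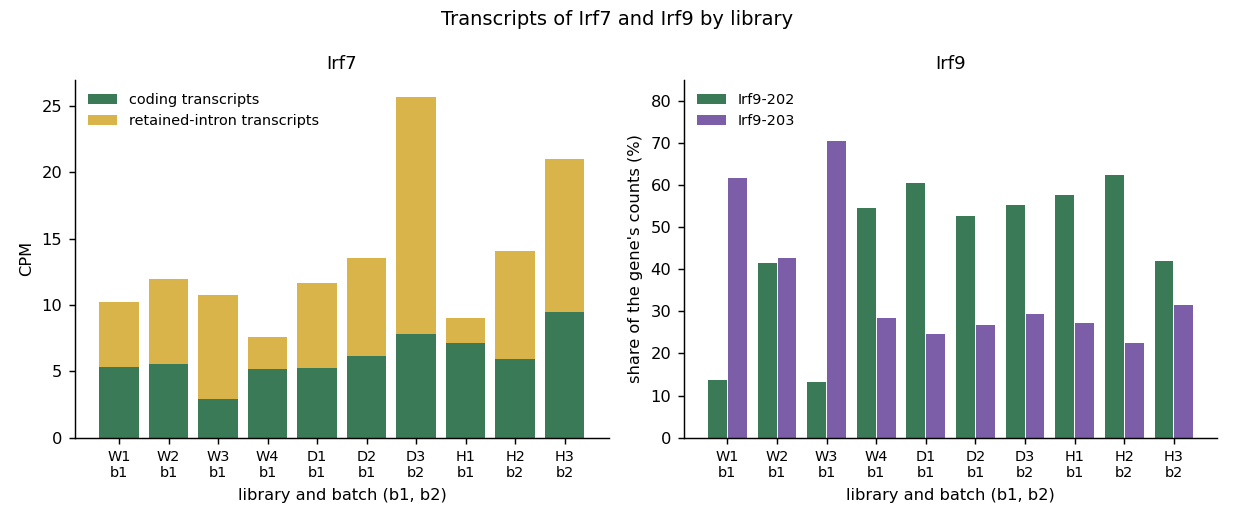
Transcripts of Irf7 (left, CPM summed over coding and over retained-intron transcripts) and Irf9 (right, share of the counts of the gene in percent held by 2 coding transcripts) in each of the 10 libraries, with the batch below each name. The retained-intron part of Irf7 is 17.9 CPM in D3 and 1.87 CPM in H1, and Irf9-202 exceeds Irf9-203 in W4 and in all 6 rd10 libraries but not in W1 to W3.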

How the data were processed

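Strand-specific polyA libraries of mouse retina (RNA integrity number of 9 or more per the labels) had been processed by the authors with kallisto against Ensembl 115 (GRCm39). The authors deposited estimated counts per transcript and per gene, of which 51.4% of the gene values lay within 1e-06 of a whole number, and a gene table named CPM. Its signal values, deposited by the authors, equalled the gene counts divided by 1 factor per library, with sums of 943804 to 1127682, and were not tested. A deposited table of the authors' own halofantrine comparison (log2 fold changes, mean expression, p-values and scores) was not used.

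Counts were rounded and tested with edgeR 4.0.16 in R 4.3.3 (filterByExpr, TMM, quasi-likelihood test, Benjamini-Hochberg adjustment over all genes tested, threshold 0.05), with only the groups compared in each fit and treatment as a term in the batch comparison. CPM are per TMM-scaled library. For the mean profile of the members and the genes most like it, log2 CPM used a prior count of 2. The differences of mean log2 CPM between groups used no prior count. Symbols were found for 11492 of 11702 gene identifiers. For members absent from the gene table, transcripts were summed, where 97.4% to 97.7% of transcript counts matched the reference. These sums, the treatment by batch interaction and a fit that both drops W4 and includes batch were added after seeing the data. Alternatives were DESeq2 1.42.0, limma-voom (limma 3.58.1), other filters and scalings, and leaving out each library. On simulated counts for 11702 genes, the test recovered 96% of genes with a 2-fold change and 48% with a 1.5-fold change for rd10 DMSO against WT without W4, with 6 false calls, and 100% and 52% for HAL against DMSO, with 8 false calls. The changed genes, 50 per factor, were drawn from those with a mean over 50 counts, and the rates cover changes of those sizes only. Ifit1, Isg15 and Bst2, which are not in the gene table, were not simulated. The comparison with WT as labelled was not simulated. Libraries of a group differed by more than sampling noise (chi-square per gene 4.48 to 431).

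The members and gene lists were chosen with earlier results of these data known. Of each pathway list, the 5 genes with the smallest p in rd10 DMSO against WT as labelled were named, beside the members and the 5 genes most like their mean profile. 1 of the genes so named is not reported here.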

Additional observations from a re-analysis of the deposited data

Results flagged for a closer look

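In the WT DMSO group, 1 library stood far from the other 3, by a gap to its nearest neighbour divided by the range of the group. Dixon's 95% critical value for this ratio, which chance passes in about 1 in 20 groups, was passed in 8 of 11 quantities checked, each time by W4. It was 0.988 for Irf1, 0.957 for Ifit1, 0.966 for Ifit3, 0.871 for Isg15, 0.94 for Bst2 and 0.831 for Ifi27, which are 6 of the 9 members. It was 0.959 for the microglia and macrophage marker sum and 0.943 for Pde6b. W4 was higher than W1 to W3 for these members and the marker sum and lower for Pde6b.

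The difference between HAL and DMSO had opposite signs in the 2 batches for Ifit1, Ifit3 and Isg15, with every HAL library below the DMSO libraries in batch 1 and above them in batch 2. The log2 difference in batch 2 minus that in batch 1 was 0.729 for Ifit1, 0.565 for Ifit3 and 1.012 for Isg15. Batch 1 holds 1 HAL library and batch 2 holds 1 DMSO library, and the treatment by batch terms given in the report did not pass with edgeR.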

How the results depend on the processing

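The WT comparisons depended on W4. In rd10 DMSO against WT, leaving out 1 library gave 0 to 7280 genes called and 0 to 5 members, both highest without W4, while DESeq2 called 589 genes and 3 members, transcript sums 1 gene, and batch as a term without W4 8447 genes and 5 members. That last fit rests on D1 and D2 of the rd10 DMSO libraries. In HAL against WT, leaving out 1 library gave 0 to 8408 genes and 0 to 5 members, again highest without W4. DESeq2 called 2221 genes and 1 member there, limma-voom, all 10 libraries in the fit and batch as a term 0 genes each, and batch as a term without W4 7807 genes and 4 members. The log2 fold change of Irf7 turned to -0.188 with batch as a term and to -0.295 with that term and without W4. In HAL against DMSO, DESeq2 called 3 genes and leaving out 1 library 0 to 7. Over these settings Irf1 ranged from -0.0244 (without D3) to 0.141 and Irf7 from -0.533 to 0.229 (without D3). In batch 2 against batch 1, DESeq2 called 1419 genes, all 10 libraries in the fit 0 genes and 0 members, no treatment term 218 genes and 0 members, and leaving out 1 library 91 (without D3) to 2638 genes (without H1) and 0 to 2 members. Irf9 turned to -0.0501 with no treatment term. Leaving out 1 library moved Ifit3 from -0.428 (without H1, called) to 0.137 (without D3) and Ifi27 from -0.43 to 0.0324 (without D3). The cause of these changes was not tested. Of the other member fold changes, 89 of 102 in rd10 DMSO against WT kept their direction and side of the threshold and 13 gained a call. No paired analysis was possible because the labels pair no libraries across groups: no number in the titles recurs within a set, and the replicate numbers only follow accession order. Depth limits Isg15 in W1 to W3, which rests on 9 to 22.3 counts.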
